A study of Arabidopsis thaliana with 43 samples.

Results

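Genes of jasmonate synthesis and response were followed in leaves of Arabidopsis thaliana, accession Col-0, through a heat acclimation and heat shock regime. They were 9 of the 33602 loci counted, chosen by locus name with earlier results of these data known. Shares of genes called, among these and in the pathway lists below, are therefore a description and not a test. LOX2 (AT3G45140), AOS (AT5G42650), AOC1 (AT3G25760) and OPR3 (AT2G06050) encode enzymes of jasmonate synthesis. JAZ1 (AT1G19180) and JAZ10 (AT5G13220) encode repressors, JRG21 (AT3G55970) a jasmonate-degrading oxygenase, and VSP1 (AT5G24780) and VSP2 (AT5G24770) storage proteins. All 9 passed the filter on low counts, as did 20980 loci in all.

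The study sequenced polyadenylated RNA from 43 libraries, which cover 11 time points in 2 batches. Each time point of a batch was 1 plate of about 80 wild-type seedlings, raised at 22 °C with 16 h of light a day, whose leaf tissue was shared between tubes. Plates were the replicates (n = 2 per time point), and counts of the tubes of a plate were added. The labels give nothing on separate seed lots or parents, so p-values measure the spread between these plates. T1 was harvested on day 12 at light onset, before any heating. Slow heating then brought the acclimated plants to 38 °C after 3 h (T2) and to 45 °C after 6 h (T3), where they stayed until 7.5 h (T4). Acclimated plants were sampled again at 22 °C on day 14 (T5) and day 16 (T6), 7.5 h after light onset. On day 16 the shock, a direct transfer to 45 °C for 90 min, ended 9 h after light onset in acclimated plants (T7). Their last sample was taken on day 18 at 22 °C (T8), 2 days after the shock. Plants without acclimation were sampled on day 16 before the shock at 22 °C (T9), at its end at 45 °C (T10) and 2 days after it at 22 °C (T11). The protocol text uses T9 for both kinds of plants, so the roles of T7, T8 and T9 follow the labels for time point and sampling temperature. For T3, batch 1 is represented by a single tube.

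Jasmonates are oxygenated fatty acid derivatives made in leaves after wounding, feeding by insects and other stresses. In chloroplasts lipoxygenases such as LOX2 oxygenate linolenic acid, AOS turns the product into an unstable allene oxide, and allene oxide cyclases such as AOC1 close its ring. OPR3 reduces the resulting oxophytodienoic acid in peroxisomes, and after shortening of the side chain the acid is joined to isoleucine. The conjugate brings JAZ repressors to the COI1 receptor for degradation, which frees the MYC2 family of transcription factors. Their targets include the JAZ genes themselves and genes for enzymes that inactivate the hormone, among them the oxygenase JRG21, also called JOX3. VSP1 and VSP2 encode vacuolar acid phosphatase-like proteins that accumulate in leaves treated with jasmonate and are widely used as its markers.

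MYC2 binds the G-box and related E-box letters, so the 500 bases before each annotated start were searched for the G-box CACGTG and for the T/G-box AACGTG, on both strands. The heat shock element core GAANNTTC, which reads the same on both strands, was searched as well. Matches of different motifs did not overlap in these promoters. The windows below hold the MYC-type matches found, read 5′ to 3′ on the strand of the gene from the TAIR10.1 genome of RefSeq, and the capitals mark the match. A CACGTT in capitals is the T/G-box read on the other strand.
LOX2 chr3:16524885-16524944 (plus strand): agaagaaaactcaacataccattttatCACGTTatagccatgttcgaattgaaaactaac
AOS chr5:17099596-17099655 (minus strand): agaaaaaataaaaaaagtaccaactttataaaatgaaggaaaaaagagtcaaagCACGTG
AOC1 chr3:9403614-9403673 (plus strand): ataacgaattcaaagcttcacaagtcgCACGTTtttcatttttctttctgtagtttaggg
JRG21 chr3:20769426-20769485 (minus strand): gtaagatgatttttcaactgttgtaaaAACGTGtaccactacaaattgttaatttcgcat
VSP1 chr5:8509339-8509398 (minus strand): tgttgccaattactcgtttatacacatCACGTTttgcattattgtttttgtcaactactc
The G-box of AOS began 6 bases before the annotated start, and the T/G-box matches lay 48 bases (JRG21), 138 bases (AOC1), 170 bases (VSP1) and 333 bases (LOX2) before it. A G-box was found in 1 of 9 promoters and in 10.2% of 20809 promoters of the same length. The T/G-box was found in 4 of 9 promoters and in 13.5% of all. The heat shock element core was found in 1 of 9, JAZ10 at 467 bases before the start, and in 18.5% of all. None of the 3 was in the windows of OPR3, JAZ1 or VSP2, which says only that these letters are absent there.

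In TAIR10.1 the genes lie at chr3:16525245-16529352 (LOX2, plus strand), chr5:17097564-17099595 (AOS, minus), chr3:9403779-9405338 (AOC1, plus) and chr2:2359114-2362375 (OPR3, minus). JAZ1 is at chr1:6621777-6623668 (plus), JAZ10 at chr5:4218786-4221077 (plus) and JRG21 at chr3:20766735-20769410 (minus). VSP1 at chr5:8507590-8509201 and VSP2 at chr5:8500468-8502224, both on the minus strand, are neighbours on chromosome 5. No member overlaps another annotated gene. Coding sequences of AOC1 and AOC2 are 90.1% identical, those of AOC1 and AOC3 82.1%, with identical runs of up to 72 bases, and those of VSP1 and VSP2 88.1%. Reads may be split between these copies, so the separate values of AOC1, VSP1 and VSP2 are uncertain.

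Plates held 12897149 to 27961281 gene counts. Records listed as not aligned were 5.69% to 15.2% per library in batch 1 and 0.174% to 0.303% in batch 2, so the batches also differ in the files, and batch was a term of every main test. The T3 and T4 plates had normalization factors of 0.361 to 0.529, against 0.785 to 1.64 in the other plates, so their levels depend most on the scaling. HSP101, the heat-induced disaggregase, marked the heated plates at 42520 and 44210 in T4, against 16.6 and 12.0 in T1. It also differed between batches at T6 (7.37 and 98.3) and T5 (12.8 and 320.4). It was also above its T9 level at T11 and T8, as given beside those comparisons. Levels are CPM values with TMM scaling (TMM-CPM), which relate a gene's counts to the scaled total of its plate, given for the plate of batch 1 and then of batch 2. Summed markers of leaf (5 genes, among them RBCS1A and LHCB1.3) reached 5983 to 179500 TMM-CPM per plate. Those of root ranged from 6.19 to 65.3, of the shoot apex from 2.53 to 30.3, of flowers from 1.32 to 10.7 and of vascular tissue from 70.6 to 343.6. No marker was at 0 in every plate. Log2 changes carry the standard error of the fit. A gene is said to have risen or fallen where its adjusted p was under 0.05 in edgeR's quasi-likelihood test with Benjamini-Hochberg adjustment, fitted over all 22 plates and 20980 loci.

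The 9 genes differed widely in level and in when they were highest. Per kb of exon, the median level over the 11 time points was 315 TMM-CPM for LOX2, 86.3 for AOS, 68.4 for VSP2, 34.1 for AOC1 and 20.6 for OPR3. It was 9.53 for JAZ1, 6.86 for VSP1, 0.786 for JAZ10 and 0.231 for JRG21. Synthesis enzymes and storage proteins thus had the higher levels per length, apart from VSP1, which lay below JAZ1. The enzymes and storage proteins had their highest mean at T7, the end of the shock in acclimated plants, and both JAZ genes and JRG21 at T8, 2 days after it. In batch 1 VSP1 was instead highest at T8 (61.0 TMM-CPM, against 11.4 at T7). There AOC1 and VSP2 were highest at T5 (94.1 and 372, against 69.7 and 141 at T7). The T7 means of VSP1 and VSP2 came mostly from the batch 2 plate (118 and 941). The highest mean was 15.0 times the lowest for LOX2, 11.1 for AOS, 5.58 for AOC1, 4.59 for OPR3, 12.4 for JAZ1, 9.65 for JAZ10, 64.6 for VSP1 and 70.0 for VSP2. JRG21 had 0 reads on both T3 plates, where 3 counts would have been 0.167 TMM-CPM.

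**Figure D1:**
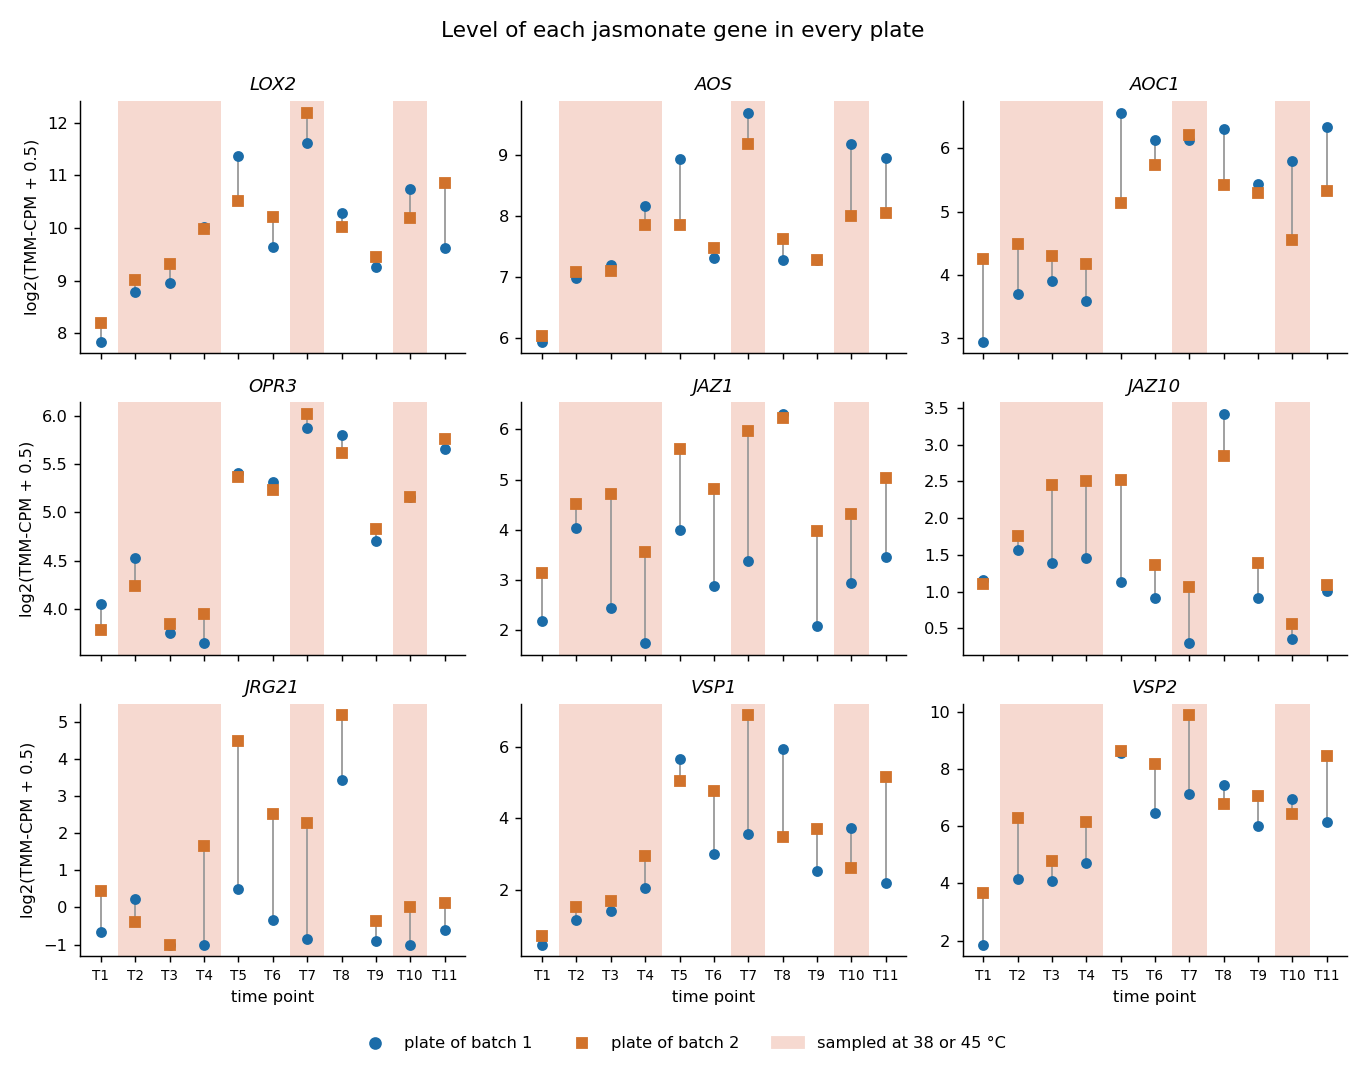
Level of each of the 9 genes on every plate, as log2(TMM-CPM + 0.5), by time point from T1 to T11. Circles are plates of batch 1, squares plates of batch 2, a line joins the plates of a time point, and shading marks harvest at 38 or 45 °C. By the mean of the plates LOX2, AOS, AOC1, OPR3, VSP1 and VSP2 are highest at T7, JAZ1, JAZ10 and JRG21 at T8. On the plates of batch 1 VSP1 is highest at T8, and AOC1 and VSP2 at T5.

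Few neighbours in these orders were separated by their plates. From high to low, LOX2 ran T7, T5, T10, T11, T8, T4, T6, T9, T3, T2, T1, and plates of neighbouring time points did not overlap in 3 of 10 steps (T7 over T5, T6 over T9 and T2 over T1). AOS ran T7, T10, T11, T5, T4, T8, T6, T9, T3, T2, T1, with 5 steps separated, from T4 over T8 down to T2 over T1. OPR3 ran T7, T11, T8, T5, T6, T10, T9, T2, T1, T4, T3, with 7 steps separated, the most of the 9 genes. AOC1 had 1 separated step, T10 over T2, which divided the lower levels of day 12 from all later ones. JAZ1 had 1 (T8 over T7), JAZ10 had 3 (T8 over T4, T2 over T9 and T1 over T11) and JRG21 had 1 (T9 over T3). VSP1 (T4 over T3, T2 over T1) and VSP2 (T5 over T11, T3 over T1) had 2 each. JAZ1 was higher in the batch 2 plate at 10 of 11 time points, JAZ10, JRG21 and VSP2 at 9 and VSP1 at 8.

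The first question was how the genes moved during slow heating. At the first sample, 3 h into the ramp, LOX2 had 440.3 and 517 TMM-CPM at T2, against 228 and 293 at T1. AOS had 126 and 136 at T2, against 61.0 and 65.3 at T1. Plates of the time points did not overlap for either enzyme. JAZ1 had 16.0 and 22.2 at T2, against 4.01 and 8.35 at T1, and VSP2 had 17.3 and 77.9, against 3.14 and 12.3. Those plates did not overlap either, yet no member passed at T2. The log2 changes were 1.77 ± 0.51 for JAZ1 (adjusted p = 0.0871) and 2.59 ± 0.73 for VSP2 (adjusted p = 0.0822, edgeR). Of all loci 2.75% passed, 2.01% higher and 0.744% lower. At an unadjusted p under 0.05 in edgeR 4 members passed, after adjustment 2 passed in DESeq2 (JAZ1 and VSP2) and 1 in limma on the authors' log2 values (VSP2). The members' median was 0.88, against -0.03 over all loci. Among the listed pathway genes the transcription factor MYC2 rose (1.73, adjusted p = 0.0243) and so did the cyclase gene AOC4 (0.93, adjusted p = 0.0421). The AOC4 call was lost without any 1 of the 4 plates, and the MYC2 call without any but the T2 plate of batch 2.

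At 45 °C AOS, and by T4 LOX2, rose against T1. LOX2 had 498 and 635 TMM-CPM at T3 and 1040.0 and 1007 at T4, against 228 and 293 at T1. AOS had 146 and 137 at T3 and 285 and 231 at T4, against 61.0 and 65.3 at T1. Neither gene's heated plates overlapped the T1 plates. Hours of light since T1 cannot be told apart from heat here. Unheated T9 leaves, 7.5 h after light onset but 4 days older, had 154 and 154 for AOS, above its T3 plates. LOX2 rose at T4 by 1.99 ± 0.45 (adjusted p = 0.00284) and had 1.12 ± 0.43 at T3 (adjusted p = 0.0504). AOS rose at T3 by 1.16 ± 0.38 (adjusted p = 0.0235) and at T4 by 2.01 ± 0.38 (adjusted p = 0.00101, edgeR's quasi-likelihood test with Benjamini-Hochberg adjustment). AOC1 and OPR3, the enzymes of the later steps, did not pass. AOC1 was at 11.6 and 17.5 at T4, against 7.20 and 18.5 at T1, and OPR3 at 12.0 and 14.9, against 16.0 and 13.2. Their plates overlapped, with log2 values of 0.17 ± 0.57 and -0.12 ± 0.21.

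The storage protein gene VSP2 also rose at T4 against T1. It had 26.0 and 71.1 TMM-CPM at T4, against 3.14 and 12.3 at T1, a log2 change of 2.74 ± 0.74 (adjusted p = 0.00877, edgeR). VSP1 was far lower, at 3.65 and 7.15 in T4 and 0.877 and 1.13 in T1, and its 2.37 ± 1.18 did not pass. The T4 plates lay above the T1 plates for both. JAZ1 had 2.84 and 11.2 at T4, against 4.01 and 8.35 at T1, with overlapping plates and a log2 value of 0.01 ± 0.54. JAZ10 had 2.23 and 5.19, against 1.73 and 1.65 (1.05 ± 0.49, adjusted p = 0.0998). JRG21 had 0 and 2.67, against 0.133 and 0.870 (1.23 ± 1.29). For these 3 genes no change passed, and the JAZ10 plates were the only ones apart.

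In all 1 of 9 members passed at T3, where 41.7% of loci passed (18.3% higher, 23.4% lower), and 3 of 9 at T4, where 42.3% passed (18.8% higher, 23.5% lower). The members' median log2 value was 1.05 at T3, against -0.24 over all loci, and 1.23 at T4, against -0.27. The share called at T4 was near that of all loci, and the 3 calls were in the higher direction. With scaling by library size the median of all loci was -1.82 at T3 and -2.11 at T4, and the calls of LOX2, AOS and VSP2 at T4 were lost. Relative to the median of all loci their T4 changes were 2.26 for LOX2, 2.28 for AOS and 3.01 for VSP2, values that a common rescaling leaves nearly as they are by construction. AOS at T3 changed sign, to -0.41, under library size, and JAZ1 (-1.83), OPR3 (-1.97) and AOC1 (-1.58) were called lower at T4. Without the T1 plate of batch 1 the calls of VSP2 at T4 and AOS at T3 were lost, and the AOS call also without either T3 plate.

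Other genes of the pathway moved in both directions at 45 °C. Of all loci 42.3% passed at T4 against T1 (18.8% higher, 23.5% lower). Being called is thus not particular to these lists. Of 11 synthesis genes tested, 5 rose and 1 fell at T4, with a median of 0.81. AOC4 rose by 2.42, the thiolase gene KAT2 by 1.78 and AOC2 by 1.73, and 4 of the 5 that rose, all but AOC4, change sign under library size. The 1 gene that fell encodes the conjugating enzyme JAR1 (-1.18). Of 10 genes for the receptor and transcription, 0 rose and 4 fell, with a median of -0.81. They included MYC2 (-1.23) and its bHLH relatives JAM1 (-1.89) and JAM2 (-2.61), which repress jasmonate responses. Of 10 other JAZ genes 2 rose, JAZ5 by 2.00 and JAZ12 with a sign that flips under library size, and 2 fell, JAZ11 by -2.44 and JAZ3 by -1.56. Of 9 turnover genes 3 rose and 0 fell. The hormone hydroxylase gene CYP94B3 rose by 3.67 and the oxygenase gene JOX2 by 2.60. JOX4, with 47 counts at T4 and 3 at T1, had a ratio of 78.8 (95% counting interval 25.4 to 396). That interval leaves out the spread between plates. JOX4 had a T4 mean of 3.36 TMM-CPM with an SD of 4.18, and log2 changes of 0.86 within batch 1 and 3.43 within batch 2. Of 13 other responsive genes 5 rose and 0 fell, with NATA1 (5.27), the tyrosine aminotransferase gene TAT3 (4.02) and the cystine lyase gene CORI3 (3.43) ahead. NATA1 and TAT3 rested on the T4 plate of batch 2: without it neither call held, and TAT3 changed sign. The other 2 of the 5, CLH1 and ARGAH2, change sign under library size. Without that plate 1 turnover gene passed. Without the T1 plate of batch 1, 1 responsive gene and 2 genes for the receptor and transcription passed, and without the T4 plate of batch 1, 1 other JAZ gene did.

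T2, T3 and T4 differ from T1 in hours of light as well as heat. T9, unheated leaves of the same hour as T4, is 4 days older. Neither hours of light nor age can be told apart from the treatment in these comparisons. Leaf markers summed to 179500 and 130900 TMM-CPM at T4, against 30020 and 47530 at T1, and their part in these results was not tested. Against T9, OPR3 was the member that passed. OPR3 had 12.0 and 14.9 TMM-CPM at T4, against 25.5 and 27.8 at T9, and fell by 0.98 on the log2 scale (SE 0.21, adjusted p = 0.00173, edgeR). The groups did not overlap, and the call held in all 10 alternatives run. LOX2 had 1040.0 and 1007 at T4, against 614 and 698 at T9 (0.65 ± 0.43), and AOS 285 and 231, against 154 and 154 (0.73 ± 0.37). Neither passed, and both signs flip under library size (-1.10 and -1.01, adjusted p = 0.0244 and 0.0099). VSP2, which rose against T1, was lower against T9, at 26.0 and 71.1, against 63.5 and 131 (-1.08). It did not pass, but was called lower under library size (-2.80) and with only these plates fitted (-1.05). AOC1 had 11.6 and 17.5, against 42.6 and 38.6 (-1.45, adjusted p = 0.0535, edgeR). OPR3 was 1 of 9 members called, where 43% of loci were called (18.7% higher, 24.2% lower), with a median of -0.38 against -0.30 over all loci. Of the receptor and transcription genes 3 of 10 fell, MYC2 (-1.88), JAM1 (-1.61) and JAM2 (-2.37), and of the other JAZ genes JAZ11 (-3.14) and JAZ3 (-1.51) fell and JAZ12 rose (0.61, a call lost in 8 of 10 alternatives, with a sign that flips under library size). Of 11 synthesis genes 3 rose and 1 fell, JAR1 (-1.87), and the signs of the 3 that rose flip under library size. Of 9 turnover genes 3 rose, among them CYP94B3 (4.30), whose call was lost without any 1 plate, and the amidohydrolase gene ILL6 (1.35), whose sign flips under library size. Of 13 other responsive genes CORI3 rose (1.76), a call lost without any 1 plate.

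Unheated leaves alone differed between T9 and T1. VSP2 had 63.5 and 131 TMM-CPM at T9, against 3.14 and 12.3 at T1, a rise of 3.82 ± 0.77 (adjusted p = 0.0175). OPR3 had 25.5 and 27.8, against 16.0 and 13.2, a rise of 0.86 ± 0.20 (adjusted p = 0.0366, edgeR). The plates did not overlap for either gene, nor for LOX2, AOS, AOC1 or VSP1, all higher at T9. These 2 of 9 members passed where 1.92% of loci passed (1.6% higher, 0.315% lower), with a median of 1.28 against -0.02. Without any 1 of the 4 plates neither call held, and without the batch term 0 members passed. AOC2 (2.47), LOX3 (1.81) and the ligase gene OPCL1 (1.75) of the synthesis list rose as well, and the corepressor gene TPL fell by 1.41 on the log2 scale. Without 1 plate 0 to 1 of the synthesis genes passed.

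The next question was how the levels stood 2 and 4 days after acclimation, with unheated T9 leaves of the same hour as the control of both. T6 and T9 were both of day 16, but T5 was of day 14, so its age cannot be told apart from acclimation. LOX2 had 2655 and 1457 TMM-CPM at T5 and 794 and 1184 at T6, against 614 and 698 at T9. VSP2 had 372 and 398 at T5 and 88.1 and 289.9 at T6, against 63.5 and 131 at T9. JRG21 had 0.906 and 21.8 at T5 and 0.295 and 5.21 at T6, against 0.0305 and 0.270 at T9. The T5 plates lay above the T9 plates for all members but AOC1 and JAZ10, yet no member passed at T5 or T6. The largest T5 value was 5.77 ± 1.27 for JRG21 (adjusted p = 0.0675, edgeR), on 22 and 792 counts, so that most of its reads came from 1 plate. Within that plate 750 counts were in 1 tube and 42 in the other, so most came from a single library.

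At T5 0.443% of loci passed (0.224% higher, 0.219% lower). At an unadjusted p under 0.05 in edgeR 7 members did, and after adjustment 4 passed in DESeq2 (LOX2, OPR3, JAZ1 and JRG21) and 1 in limma. At T6 0.0191% of loci passed (0.0143% higher, 0.00477% lower), with 2 members at an unadjusted p under 0.05 and 0 in DESeq2 or limma. The members' median was 1.68 at T5 and 0.58 at T6, against 0.01 over all loci at each. Of 9 turnover genes 2 rose at T5, IAR3 by 1.57, an amidohydrolase gene, and JOX4, with 452 counts at T5 and 3 at T9, a ratio of 173 (interval 58.9 to 843). Neither call held without the batch 2 plate of T5 or of T9, and that of IAR3 was also lost without the other T9 plate. No listed gene passed at T6.

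At the end of the shock LOX2, AOS and OPR3 rose in acclimated plants. T7 and T10 were taken 1.5 h later in the day than T6 and T9, which cannot be told apart from the shock. LOX2 had 3136 and 4678 TMM-CPM at T7, against 794 and 1184 at T6. AOS had 824 and 577 at T7, against 159 and 178 at T6. OPR3 had 58.2 and 64.6, against 39.3 and 37.1. No T7 plate of these enzymes overlapped a T6 plate. LOX2 rose by 1.98 ± 0.44 (adjusted p = 0.0202), AOS by 2.02 ± 0.38 (adjusted p = 0.0106) and OPR3 by 0.69 ± 0.20 (adjusted p = 0.0461, edgeR's quasi-likelihood test with Benjamini-Hochberg adjustment). AOC1 had 69.7 and 73.6, against 69.6 and 52.8 (0.24 ± 0.55). The batch 1 plates of AOC1 were almost level.

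The other members did not pass at T7, and their plates were far apart. VSP1 had 11.4 and 118 TMM-CPM at T7, against 7.50 and 26.9 at T6 (1.81 ± 1.00). VSP2 had 141 and 941, against 88.1 and 289.9 (1.36 ± 0.70). JAZ1 had 9.87 and 62.0, against 6.91 and 27.5 (0.94 ± 0.49). In each batch these genes were higher at T7, and the T7 plate of batch 1 lay below the T6 plate of batch 2. JAZ10 had 0.727 and 1.60, against 1.38 and 2.07, and JRG21 0.0519 and 4.32, against 0.295 and 5.21. Both were lower at T7 in each batch, with log2 values of -0.59 ± 0.49 and -0.42 ± 0.98.

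These 3 of 9 members were called where 8.24% of loci were (4.46% higher, 3.78% lower), with a median of 0.94 against -0.03. Without either T6 plate or the T7 plate of batch 1 no member passed, and without the T7 plate of batch 2 only 1 did, AOS. The OPR3 call was lost in 9 of 10 alternatives. Library size moved the median of all loci to -0.69. Of the listed synthesis genes OPCL1 (1.67), KAT2 (1.51) and AOC4 (1.23) rose at T7, 3 of 11, and none fell. Of the regulators JAM2 fell (-1.69) and JAM3 rose (0.89), and of the responsive genes the chlorophyllase gene CLH1 rose (1.31). Of the other JAZ genes (10 tested) and turnover genes (9 tested) 0 passed, with medians of -0.09 and -0.40. None of these 6 calls held without the T6 plate of batch 1.

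In plants without acclimation AOS alone among the members rose. AOS had 580.2 and 256 TMM-CPM at T10, against 154 and 154 at T9, a rise of 1.38 ± 0.38 (adjusted p = 0.0397, edgeR). LOX2 had 1715 and 1170.5, against 614 and 698 (1.16 ± 0.43, adjusted p = 0.105). OPR3 had 35.1 and 35.3, against 25.5 and 27.8 (0.40 ± 0.20, adjusted p = 0.202). For all 3 the T10 plates lay above the T9 plates. JAZ10 had 0.775 and 0.974 at T10, against 1.37 and 2.11 at T9, with the T10 plates below (-0.97 ± 0.49). AOC1, JAZ1, JRG21, VSP1 and VSP2 overlapped between T10 and T9. This was 1 of 9 members, where 8.22% of loci passed (3.76% higher, 4.46% lower), with a median of 0.40 against -0.04. The AOS call was lost without either T9 plate or the T10 plate of batch 1, and under library size. Of the listed genes AOC4 (1.16) and CLH1 (1.02) rose and JAM2 fell (-1.47), and without the T10 plate of batch 1 none of the 3 passed.

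**Figure D2:**
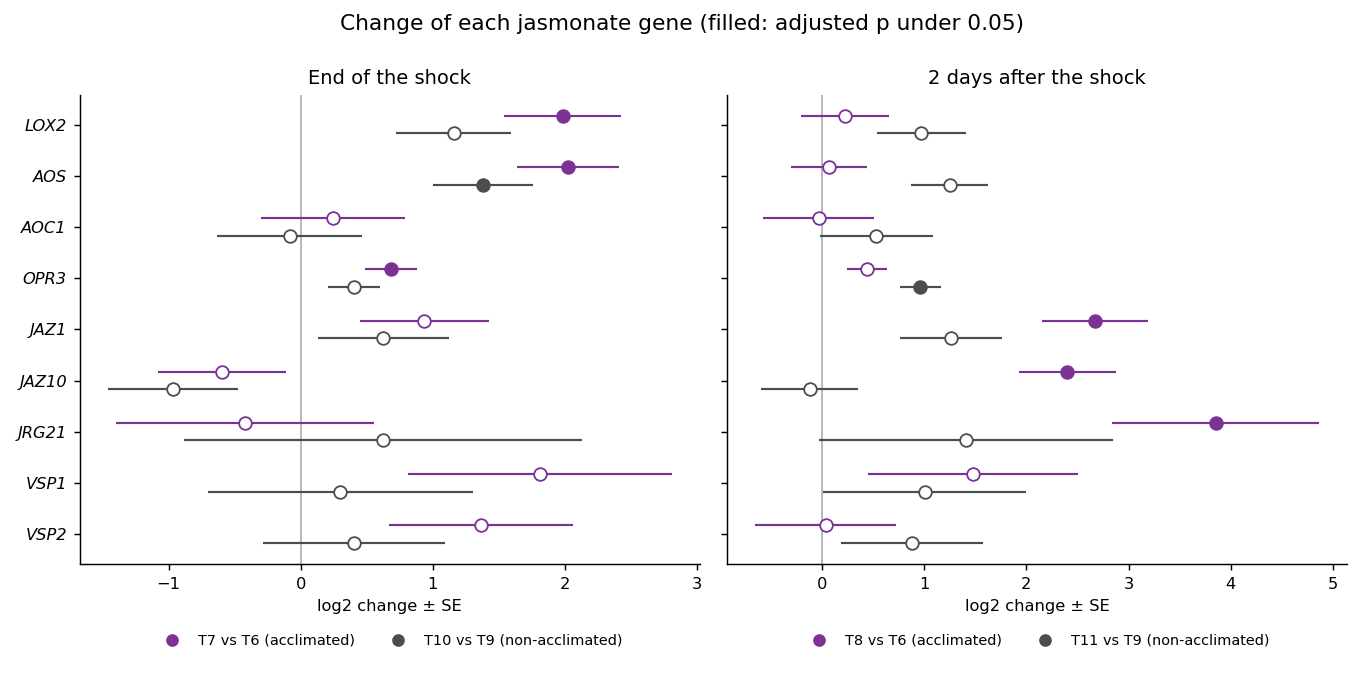
Log2 change with its standard error for each of the 9 genes at the end of the shock (left: T7 vs T6 in acclimated plants, T10 vs T9 in non-acclimated plants) and 2 days after it (right: T8 vs T6 and T11 vs T9), with TMM scaling. Filled points have an adjusted p under 0.05: LOX2, AOS and OPR3 at T7, AOS at T10, JAZ1, JAZ10 and JRG21 at T8, and OPR3 at T11.

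Whether the shock response differed with acclimation was tested directly. The difference of the log2 changes was 0.83 ± 0.61 for LOX2, 0.64 ± 0.52 for AOS and 0.28 ± 0.28 for OPR3, and no member passed. In edgeR 0 of 20980 loci passed (0% called), with 0 members at an unadjusted p under 0.05, and 0 members passed in DESeq2 or limma. Set side by side at the end of the shock, LOX2 had 3136 and 4678 TMM-CPM at T7 and 1715 and 1170.5 at T10. OPR3 had 58.2 and 64.6 at T7, against 35.1 and 35.3 at T10. The T7 plates were higher for both, with log2 values of 1.41 ± 0.44 (adjusted p = 0.383) and 0.80 ± 0.20 (adjusted p = 0.249). No member passed, where 0.0572% of loci did (0.0524% higher, 0.00477% lower). At an unadjusted p under 0.05 in edgeR 6 members passed, and after adjustment 2 in DESeq2 (LOX2 and OPR3) and 0 in limma. The members' median was 1.18, against 0.01 over all loci.

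Leaves that reached 45 °C suddenly (T10) were also set against leaves that reached it slowly and stayed there as long (T4). OPR3 had 35.1 and 35.3 TMM-CPM at T10, against 12.0 and 14.9 at T4, and was higher by 1.39 ± 0.21 (adjusted p = 0.000283, edgeR). JAZ10 had 0.775 and 0.974 at T10, against 2.23 and 5.19 at T4, and was lower by a log2 value of -2.04 ± 0.52 (adjusted p = 0.00996). Neither gene's plates overlapped. The OPR3 call held in all 10 alternatives, and the JAZ10 call was lost without the batch 2 plate of T4 or of T10. These were 2 of 9 members, where 28.4% of loci passed (16.2% higher, 12.1% lower), with a median of 0.98 against 0.17. Day of age (16 and 12) and hour after light onset (9 and 7.5) cannot be told apart from the way of heating. Leaf markers summed to 77960 and 63180 TMM-CPM at T10, against 179500 and 130900 at T4, and their part was not tested. Library size moved the median of all loci to 1.24, and 6 members passed under it. Among the listed genes MYC2 was higher at T10 by 2.90, OPCL1 by 2.09, JAZ11 by 2.02, JAR1 by 1.70, AOC2 by 1.65 and JAM3 by 0.85. CTS, which encodes a peroxisomal transporter, was lower (-0.97), with a sign that flips under library size. The turnover genes JOX4 (3 counts at T10 and 47 at T4, ratio 0.0186, interval 0.00370 to 0.0577) and IAR3 (-1.01, a sign that flips under library size) were lower, and neither call held without the T10 plate of batch 2. The JOX4 change was -0.73 within batch 1 and -3.50 within batch 2.

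In acclimated plants both repressor genes and JRG21 rose 2 days after the shock, a time that cannot be told apart from 2 more days of age. JAZ1 had 78.7 and 74.6 TMM-CPM at T8, against 6.91 and 27.5 at T6. JAZ10 had 10.2 and 6.67 at T8, against 1.38 and 2.07 at T6. JRG21 had 10.2 and 35.7, against 0.295 and 5.21. For each of them both T8 plates lay above both T6 plates. JAZ1 rose by 2.67 ± 0.52 (adjusted p = 0.0115), JAZ10 by 2.40 ± 0.47 (adjusted p = 0.0127) and JRG21 by 3.85 ± 1.01 (adjusted p = 0.0461, edgeR's quasi-likelihood test with Benjamini-Hochberg adjustment). In the tubes of the T8 plates JAZ1 had 65.5 and 88.7 in batch 1 and 74.4 and 74.8 in batch 2. JRG21 had 9.14 and 11.1 in batch 1 and 27.3 and 43.5 in batch 2.

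The synthesis enzymes, which had been high at T7, did not pass at T8. LOX2 had 1243 and 1029 TMM-CPM at T8, against 794 and 1184 at T6 (0.22 ± 0.43). AOS had 155 and 196, against 159 and 178 (0.07 ± 0.37). AOC1 had 78.5 and 42.4, against 69.6 and 52.8 (-0.03 ± 0.55). Plates of these 3 genes overlapped. OPR3 had 55.2 and 48.5, against 39.3 and 37.1, with the T8 plates above (0.44 ± 0.20, adjusted p = 0.208). The storage proteins went opposite ways in the batches: VSP1 had 61.0 and 10.6 at T8, against 7.50 and 26.9 at T6. VSP2 had 173 and 108, against 88.1 and 289.9.

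The 3 of 9 members called at T8 compare with 4.64% of loci (1.37% higher, 3.27% lower), and the members' median was 0.44, against 0.01 over all loci. Without either T6 plate or the T8 plate of batch 1, 0 members passed (highest adjusted p 0.139 for JAZ1, 0.156 for JAZ10 and 0.257 for JRG21), and without the T8 plate of batch 2 all 3 did. Without the batch term 0 passed, and the JRG21 call was also lost under library size. Leaf markers were lowest at T8, with sums of 5983 and 13440 TMM-CPM, against 21750 and 40160 at T6. Root markers summed to 19.9 and 23.9 at T8, against 46.7 and 46.3 at T6. Among them IRT1 fell (-4.31), as did the root hair regulator RHD6, at 0 on both T8 plates from a low mean of 1.05 at T6. CASP1 (-3.03) and SCR (-0.62), which made up most of the T8 sum (mean 19.5), were lower without passing. NRT2.1 was higher without passing (0.34). Shoot apex markers summed to 13.5 and 30.3, against 12.1 and 13.7. Heat genes (HSP101, HSFA2, HSP18.2 and HSP21) summed to 1574 and 2506 at T8, against 40.3 and 468.5 at T6, and none of them passed. The part of these shifts in the jasmonate results was not tested, and in such bulk samples fewer cells of a type cannot be told apart from less RNA per cell.

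Of 9 other turnover genes 5 rose at T8 and 0 fell, with a median of 1.58, where 1.37% of all loci rose and 3.27% fell. JOX4 had 7.44 and 18.4 TMM-CPM at T8, against 0 and 0.455 at T6 (11 counts), a rise of 6.85 ± 0.93 (adjusted p = 0.00174). JOX2 had 107 and 73.0, against 7.30 and 24.9, a rise of 2.64 ± 0.58 (adjusted p = 0.0206, edgeR). CYP94C1, which carries jasmonoyl-isoleucine to its carboxylated form, had 15.1 and 1.45, against 0.393 and 0.828, and rose by 4.13 ± 1.10. ILL6 and IAR3, whose products release jasmonate from its conjugates, rose by 2.13 and 1.51. All 5 had higher T8 plates. The count was 1 without the T6 plate of batch 1 and 1 without the batch term. Of 10 other JAZ genes JAZ5 rose, by 3.01 (17.1 and 5.30 TMM-CPM at T8, against 1.24 and 1.66 at T6), a call lost without either T6 plate or the T8 plate of batch 1. No listed gene for synthesis (11 tested, median 0.56), for the receptor and transcription (10 tested, median 0.21) or of the other responsive group (13 tested) passed.

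**Figure D3:**
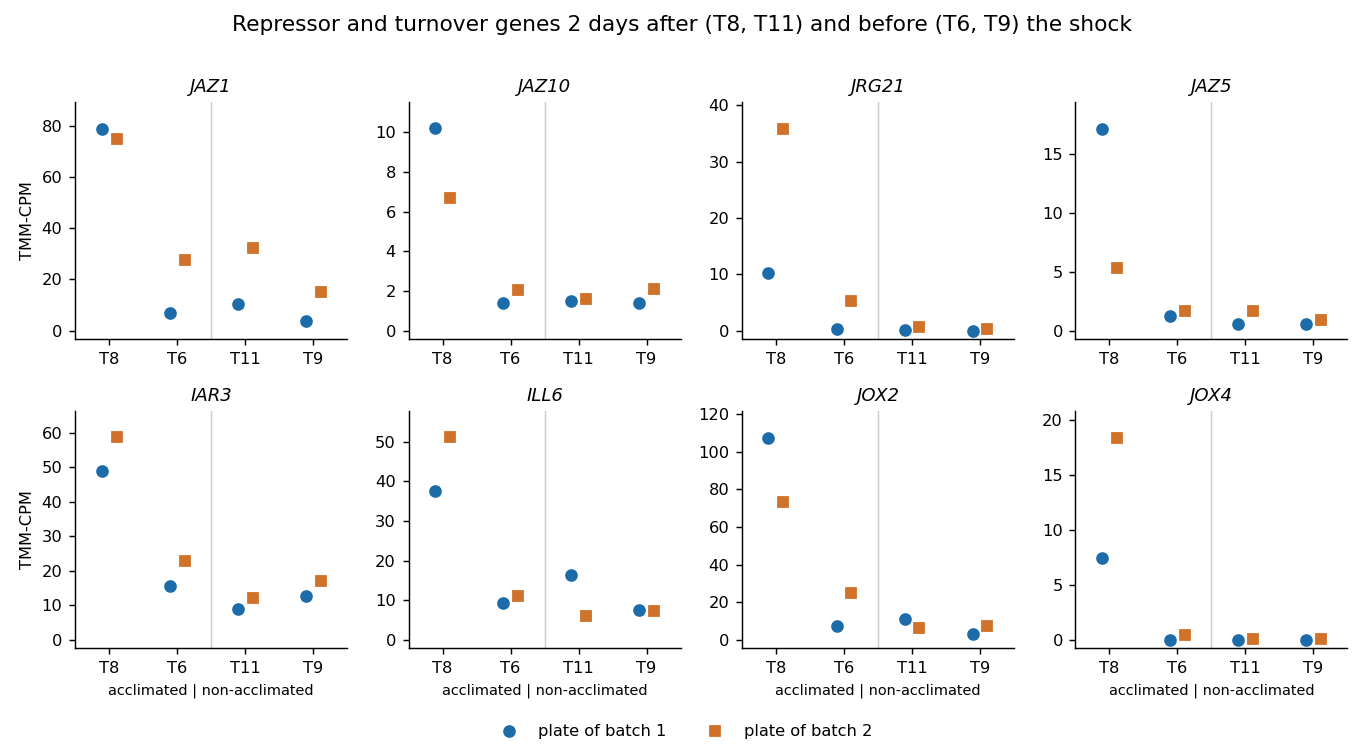
Level in TMM-CPM on every plate 2 days after the shock (T8 acclimated, T11 non-acclimated) and before it (T6 acclimated, T9 non-acclimated), for JAZ1, JAZ10, JRG21, JAZ5, IAR3, ILL6, JOX2 and JOX4. Circles are plates of batch 1 and squares plates of batch 2. In the 8 panels, chosen after their values were seen, both T8 plates lie above the plates of T6, T11 and T9. CYP94C1, not plotted, does not share this: its T8 plate of batch 2 (1.45) is below its T9 plate of batch 2 (2.00).

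In plants without acclimation OPR3 was the member that passed 2 days after the shock. This time, too, cannot be told apart from 2 more days of age (day 18 at T11, day 16 at T9). OPR3 had 50.1 and 53.7 TMM-CPM at T11, against 25.5 and 27.8 at T9, a rise of 0.96 ± 0.20 (adjusted p = 0.0147, edgeR). AOS had 495 and 263, against 154 and 154 (1.25 ± 0.38, adjusted p = 0.059). LOX2 had 787 and 1839, against 614 and 698 (0.97 ± 0.43, adjusted p = 0.164). The T11 plates were above the T9 plates for these 3 enzymes. Single tubes overlapped for LOX2 (448 in a T11 tube, 1118 in a T9 tube) and narrowly for AOS (180 and 183), but not for OPR3. JAZ1 had 10.4 and 32.3 at T11, against 3.72 and 15.2 at T9 (1.26 ± 0.50). JAZ10 had 1.51 and 1.62, against 1.37 and 2.11 (-0.12 ± 0.47), and JRG21 0.162 and 0.593, against 0.0305 and 0.270 (1.41 ± 1.44). Plates of JAZ1, JAZ10 and JRG21 overlapped.

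OPR3 was 1 of 9 members called, where 6.69% of loci were (3.02% higher, 3.67% lower), with a median of 0.97 against -0.04. Its call was lost without either T9 plate or the T11 plate of batch 1, and under library size. HSP101 had 3601 and 1241 TMM-CPM at T11, against 5.86 and 7.54 at T9, and 5554 and 2689 at the end of the shock (T10). The part of remaining heat transcripts in the T11 results was not tested. Among the listed genes AOC4 (1.25), CLH1 (1.24) and JAZ12 (0.89) rose, and none of the 3 passed without the T11 plate of batch 1. No turnover gene of 9 passed, with a median of 0.55. By unadjusted p under 0.05 in edgeR 4 members passed in this comparison.

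The acclimated and non-acclimated plants were then set against each other 2 days after the shock. JAZ1 had 78.7 and 74.6 TMM-CPM at T8, against 10.4 and 32.3 at T11, and was higher by 2.27 ± 0.51 (adjusted p = 0.00589). JAZ10 had 10.2 and 6.67, against 1.51 and 1.62, and was higher by 2.50 ± 0.48 (adjusted p = 0.00271). JRG21 had 10.2 and 35.7, against 0.162 and 0.593, and was higher by 6.32 ± 1.24 (adjusted p = 0.00335, edgeR). No T8 plate of the 3 genes overlapped a T11 plate. AOS went the other way, at 155 and 196 in T8 and 495 and 263 in T11 (-1.05 ± 0.38, adjusted p = 0.0504). OPR3 was close between them, at 55.2 and 48.5 in T8 and 50.1 and 53.7 in T11, with a 0.00 log2 value and SE of 0.20.

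These 3 of 9 members were called where 27.3% of loci were (13.9% higher, 13.4% lower), with a median of 0.02 against 0.01, so the share called was near that of all loci. Without the T8 plate of batch 1 only JRG21 passed, and without the T11 plate of batch 2 JRG21 was lost (adjusted p = 0.0507). Leaf markers summed to 5983 and 13440 TMM-CPM at T8, against 45010 and 44720 at T11, with 4 of 5 lower at T8. HSP101 had 372 and 484 at T8, against 3601 and 1241 at T11, and HSFA2 91.2 and 149.6, against 1623 and 865.9. Other heat genes went the other way. HSP18.2 had 872.7 and 1531 at T8, against 601.7 and 197.1 at T11, and HSP21 237.8 and 341.3, against 172.9 and 28.4. The part of leaf markers or heat transcripts in these results was not tested. Turnover genes again had 5 of 9 higher and 0 lower, with a median of 2.37. They were JOX4 (746 counts at T8 and 3 at T11, ratio 176, interval 60.1 to 857), CYP94C1 (5.45), JOX2 (3.36), IAR3 (2.37) and ILL6 (2.06). Of 10 other JAZ genes 4 were higher at T8, led by JAZ8 (3.60), JAZ5 (3.37) and JAZ6 (1.77). Of the regulators JAM2 (1.36), MYC4 (1.28) and JAM1 (1.12) were higher, 3 of 10. In the synthesis list AOC3 (2.49) and LOX3 (1.26) were higher and AOC4 (-1.06) lower. Of 13 responsive genes the NAC factor ANAC019 (4.22) and ERF109 (36 counts at T8 and 2 at T11, ratio 12.8, interval 3.29 to 109) were higher and CLH1 (-2.15) lower. Without the T8 plate of batch 1, 0 other JAZ genes and 0 synthesis genes passed, and without the T11 plate of batch 1, 0 of the regulators did. The count of turnover genes was 3 without the T11 plate of batch 2. When only the T8 and T11 plates were fitted, 0 genes passed in each of the 5 lists, as among the members. The ERF109 call was lost in 8 of 9 alternatives.

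T8 vs T6 and T8 vs T11 share the T8 plates, and the shock and recovery comparisons share T6 or T9. The test of the difference itself asks whether the change 2 days after the shock was unlike with and without acclimation. The difference was 2.52 ± 0.66 for JAZ10 (adjusted p = 0.0642), 1.41 ± 0.70 for JAZ1 (adjusted p = 0.244) and 2.44 ± 1.79 for JRG21 (adjusted p = 0.435). For AOS it was -1.18 ± 0.53 (adjusted p = 0.202, edgeR). No member passed, where 1.46% of loci did (0.672% higher, 0.786% lower), and 2 had an unadjusted p under 0.05. JAZ10 passed in DESeq2 (adjusted p = 0.0107), in limma on the authors' values (adjusted p = 0.046) and in edgeR without the T8 plate of batch 2 (adjusted p = 0.024).

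Tubes of the same plate give a view of the spread within a plate. In 21 plates with a pair of tubes, the median size of the log2 difference between tubes was 0.15 for OPR3, 0.27 for JAZ10, 0.33 for both AOS and AOC1 and 0.43 for LOX2. It was 0.51 for JAZ1, 0.55 for JRG21, 0.61 for VSP2 and 0.95 for VSP1. OPR3 had the smallest median and VSP1 the largest. The 0.5 added before taking logs makes differences look small in genes of low level, JRG21 and JAZ10 above all: JRG21 had 1.47 and 0.0991 TMM-CPM in the tubes of T1 in batch 2. Single plates went much further. At T11 in batch 2 VSP2 had 529 TMM-CPM in one tube and 33.9 in the other, and at T9 in batch 1 LOX2 had 234 and 1118. At T11 in batch 1 AOC1 had 19.6 and 140.0. Across all genes the tubes correlated at 0.955 to 0.996, and the chi-square per degree of freedom between tubes was 3.58 to 113, beyond sampling noise in each of the 21 plates.

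**Figure D4:**
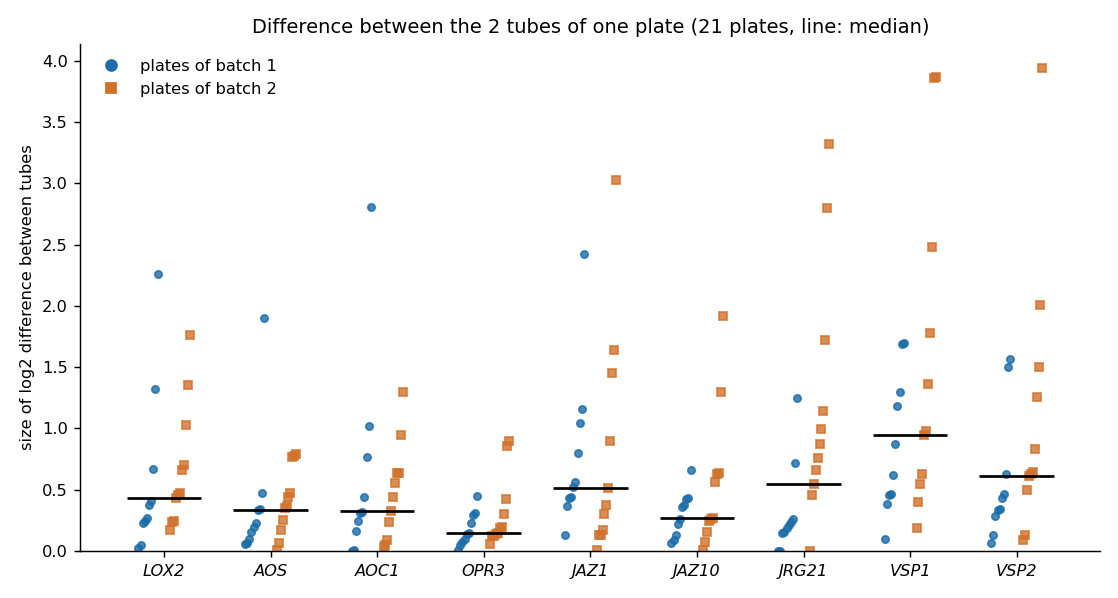
Size of the log2 difference between the tubes of one plate, for each of the 9 genes over 21 plates. Circles are plates of batch 1, squares plates of batch 2, and the line is the median, lowest for OPR3 (0.15) and highest for VSP1 (0.95).

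Some members differed between tubes in the same direction. VSP1 and VSP2 did so in 18 of 21 plates (r = 0.77 across plates, 0.81 without the 2 plates farthest from the median), and LOX2 and AOS in 18 of 21 (r = 0.73, and 0.76). LOX2 and JAZ10 did so in 13 of 21 plates (r = -0.32, and -0.21). The points share library depth and scaling, so these values are a description.

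Over the 22 plates, with the mean of each batch taken away, the enzymes and storage proteins were positively correlated with each other and JAZ10 stood apart. Pearson's r of the log2 levels was 0.94 for VSP1 and VSP2, 0.90 for LOX2 and AOS, 0.89 for LOX2 and VSP2, 0.87 for AOC1 and VSP2 and 0.85 for AOC1 and OPR3. JAZ1 was most like OPR3 (0.71) and JRG21 (0.69) among the members. JAZ10 had -0.19 with LOX2 and -0.34 with AOS, and 0.48 with both JAZ1 and JRG21. Such values were not particular to the members. Among 20979 other loci AOS had rank 1 for LOX2 and VSP2 rank 1 for VSP1. For OPR3, however, LOX2 had rank 1015 and AOS rank 2299, and for AOC1 AOS had rank 1247. VSP1 and VSP2 may share reads, and plates of a time point and the scaling are common to all pairs.

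**Figure D5:**
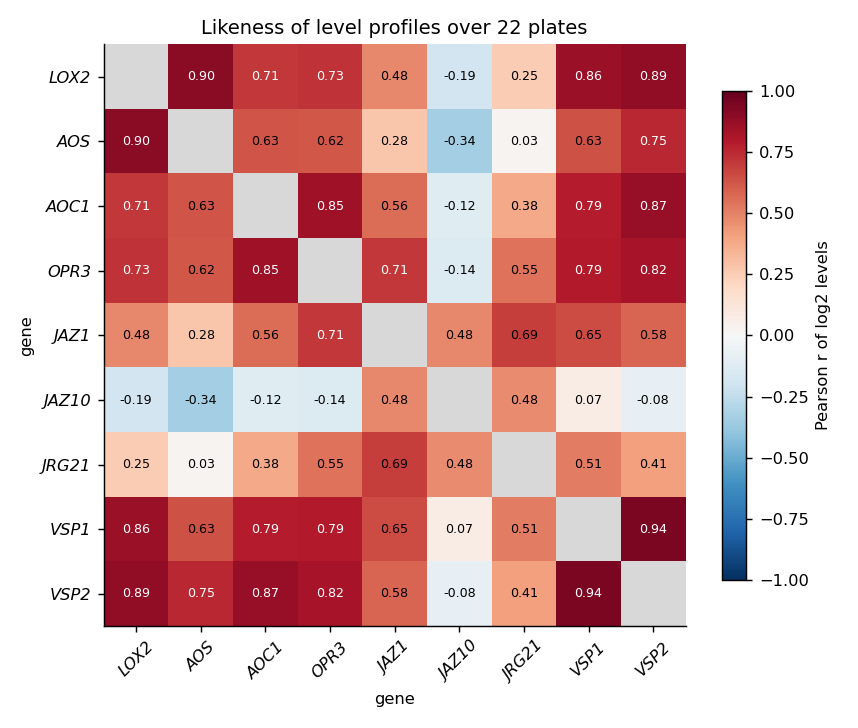
Pearson's r between the log2 levels of the 9 genes over 22 plates, with the mean of each batch subtracted. Red cells are positive and blue cells negative, with the value written in each: LOX2, AOS, AOC1, OPR3, VSP1 and VSP2 are at 0.62 to 0.94 with each other, and JAZ10 is at -0.34 to 0.07 with those 6.

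Among all 20980 loci the gene most like LOX2 was AOS (0.90), followed by the jacalin-related lectin gene JAL23 (0.89) and ATSDI1 (0.89). For OPR3 they were the methyltransferase gene IGMT5 (0.95), APL4 (0.94), of the glucose-1-phosphate adenylyltransferase family, and the phospholipase C gene PLC4 (0.93). JAZ10 was most like AT2G46420, RFNR1 and AT5G47090 (0.90 each). JRG21 was most like the subtilase family gene AT5G58840 (0.89), ECT3 (0.88) and AT4G30150 (0.87). VSP2 was most like VSP1 (0.94), the myrosinase-binding protein gene MBP2 (0.93) and AT5G61290 (0.91). These are correlations over the same 22 plates and say nothing of shared function.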

How the data were processed

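Members and gene lists were chosen with earlier results of these data known. The deposited files hold whole-number counts of reads per locus for each library. Per the submitters' processing notes, the authors' tools were HTSeq and SAMtools, with TopHat2 2.0.14, Bowtie2 2.1.0.0 and bcl2fastq 1.8.4, and the genome was TAIR10. No source used here gives the strand setting. A second deposited table holds the authors' log2 values, with a normalization not given in the sources used here. It served only as an alternative, without 1 column that matched no sample.

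The tubes of each plate were summed as counts. Summary lines that name no gene (11.7% to 45.3% of records per library) were left out. The quasi-likelihood test of edgeR 4.0.16 in R 4.3.3 used TMM scaling, filterByExpr with a smallest count of 10, 1 fit over 22 plates with terms for time point and batch, and Benjamini-Hochberg adjustment over 20980 loci at 0.05. The residual degrees of freedom were 10, and the common BCV (biological coefficient of variation) was 0.308. DESeq2 1.42.0, limma 3.58.1 and the other alternatives are described with the sensitivity results. The batch was a block because the labels name it, and plates of the same batch deviated together: r was 0.104 to 0.66 in 55 pairs of time points, all over 0.1. Deviations per locus were correlated over 20980 loci. On simulated counts of T10 and T9 over 20306 loci, the test recovered 79% of genes changed by a log2 value of 2 and 100% of those changed by 3, with 6 false calls. The simulation gave every locus the same BCV of 0.308 and no batch effect, unlike the real plates. No gene of low level was changed in it, so the figures do not carry over to JAZ10 and JRG21.

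All 9 members are named throughout. From each list the text names, per comparison, up to 3 called genes with the largest change. The 3 loci most like a member are given for LOX2, OPR3, JAZ10, JRG21 and VSP2. JAR1, JAZ12, CLH1 and ARGAH2 at T4, CTS at T10, and ILL6 and IAR3 at T8, were added after their values were seen, as they complete a small count or a role. A ratio with 1 to 3 counts on one side carries a 95% interval that covers counting error only. Coordinates and sequences are those of TAIR10.1 from RefSeq, in which 32835 of 33602 loci were found by locus. Of the listed genes DAD1, DGL, JAZ13, JOX1 and BSMT1 did not pass the filter on low counts.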

Additional observations from a re-analysis of the deposited data

Results flagged for a closer look

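Among the listed pathway genes 3 differed between acclimated and non-acclimated plants in their change 2 days after the shock, by edgeR's test of the difference itself (T8 vs T6 minus T11 vs T9). The amidohydrolase gene IAR3 had 48.8 and 58.8 TMM-CPM at T8, 15.7 and 22.8 at T6, 9.03 and 12.1 at T11 and 12.6 and 17.1 at T9, a difference of 2.00 ± 0.45 (adjusted p = 0.0458). AOC4 had 34.1 and 44.8 at T8, 41.2 and 66.8 at T6, 80.9 and 82.1 at T11 and 30.3 and 38.5 at T9, a difference of -1.70 ± 0.32 (adjusted p = 0.0296). CLH1 had 14.8 and 20.8 at T8, 23.0 and 39.9 at T6, 56.9 and 105 at T11 and 29.6 and 37.0 at T9, a difference of -2.04 ± 0.43 (adjusted p = 0.0373). Among these 4 time points IAR3 was highest at T8, and AOC4 and CLH1 at T11. The call of AOC4 held in 6 of 14 alternatives, and those of IAR3 and CLH1 in 4 of 14 each, with adjusted p of up to 0.154, 0.218 and 0.158.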

How the results depend on the processing

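The replicate block was the batch term. Without it, calls of members went to 0 at T8 vs T6, T9 vs T1 and T10 vs T9 and to 1 at T8 vs T11, and no other count of member calls moved by over 1.5 times. Of the 20 member calls, 10 held without the block.

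Numbers of members called moved as follows. T2 vs T1 had 2 in DESeq2, 1 in limma on the authors' log2 values and 4 when only the plates compared were fitted. T3 vs T1 had 2 with library size scaling, 3 in DESeq2, 3 with the authors' values and 4 with only its plates. T4 vs T9 had 6 with library size, 2 in DESeq2, 3 with the authors' values and 3 with only its plates. T9 vs T1 had 1 with library size, 5 in DESeq2, 1 without the low-count filter and 0 with only its plates. T5 vs T9 had 4 in DESeq2 and 1 with the authors' values, and T6 vs T9 had 1 with only its plates. T10 vs T9 had 0 with library size, 2 in DESeq2, 0 with the authors' values and 0 with only its plates. T7 vs T6 had 1 with the authors' values and 0 with only its plates, and T7 vs T10 had 2 in DESeq2 and 6 with only its plates. T10 vs T4 had 6 with library size and 1 with only its plates. T11 vs T9 had 0 with library size, 2 in DESeq2 and 0 with only its plates. T8 vs T11 had 0 with only its plates. The recovery difference had 1 in DESeq2 and 1 with the authors' values. T4 vs T1 stayed within 1.5 times of 3 in number, but not in genes. With library size the members called were JAZ1 (-1.83), OPR3 (-1.97) and AOC1 (-1.58), all lower, and none of LOX2, AOS and VSP2. The shock difference was 0 throughout.

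Leaving out 1 plate gave 0 to 1 members at T3 vs T1, 0 at T9 vs T1, 0 to 1 at T10 vs T9, T7 vs T6, T11 vs T9 and the recovery difference (1 without T8 replicate 2), 1 to 2 at T10 vs T4, 0 to 3 at T8 vs T6 and 1 to 4 at T8 vs T11. Of the 80 such refits of a member call, 37 held and 43 lost significance in the same direction.

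One member call reversed: AOS at T3 vs T1 was -0.411 with library size. All 20 calls held in DESeq2, 15 with the authors' values, 10 with library size, 18 without the filter and 8 with only the plates compared. LOX2 at T8 vs T11 was 1.67 (adjusted p = 0.0088) with the authors' values and limma, against -0.17 in the counts, and the cause was not tested. With 2 plates per time point and low counts of JRG21 and JAZ10 on heated plates (0 to 61 at T3), small changes could not be detected.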
